A study of Mus musculus with 6 samples.

Results

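The 10 genes described here encode proteins of the heart muscle cell and were read in RNA from whole lung. They were chosen by symbol (Myh6, Myh7, Tnnt2, Tnni3, Nppa, Myl7, Myl4, Sln, Actc1 and Mybpc3), and all 10 were found among the 55335 genes of the count table. The samples were 6 mouse embryos at embryonic day 18, with 1 stranded mRNA library from each whole lung. The control group was 3 embryos with the Prx1Cre transgene, 1 floxed Gata4 allele and 1 intact allele (labelled Prx1Cre; Gata4 F/+). The Gata4 CKO group was 3 embryos with the same transgene, 1 floxed and 1 deleted allele (labelled Prx1Cre; Gata4 F/D). Every embryo thus carried Prx1Cre and a floxed allele, and the labels place the Cre in the lateral plate mesoderm. Cells without Cre keep their floxed allele in both groups, but their other allele is intact in controls and deleted in Gata4 CKO.

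The contractile unit of heart muscle, the sarcomere, is built of thick filaments of myosin and thin filaments of actin, which calcium sets sliding through the troponin complex. Atrial and ventricular muscle use different versions of several of these proteins. In mice, heart muscle of an atrial kind also sheathes the pulmonary veins and follows them into the lung, so that cardiac transcripts in lung RNA may come from there or from heart tissue taken along. Which of these was read was not tested.

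Total counts ranged from 15156415 (Gata4 CKO 2) to 30848948 (control 3). Values are CPM, the usual depth-scaled count, computed with TMM-scaled library sizes. The surfactant protein gene Sftpc, a marker of lung alveolar type 2 cells, was at 6526, 6037 and 9729 CPM in controls 1, 2 and 3 and at 16538, 11132 and 9928 CPM in Gata4 CKO 1, 2 and 3. The level fits the tissue label, and the groups did not overlap (log2 fold change 0.75 ± 0.28, SE, edgeR adjusted p = 0.543). Gata4, the targeted gene, stood at 3.92, 3.02 and 2.95 CPM in controls 1, 2 and 3 and at 5.72, 5.03 and 3.20 CPM in Gata4 CKO 1, 2 and 3 (log2 fold change 0.49 ± 0.28, SE, edgeR adjusted p = 0.671). It was not lower in the libraries labelled Gata4 CKO, so every direction below rests on the labels. Gata4 CKO 1 stood apart by gene length, counted over all annotated exons. Among the 5685 longest tested genes (5389 bases of exon or more) its median log2 deviation from the mean of all libraries was -0.32, and among the 5689 shortest (2804 bases or less) it was 0.30. No other library passed 0.09 in size in either class.

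Upstream sequence is shown for 4 of the genes. Nppa and Myl7 are atrial genes with opposite levels in these lungs, Myh7 is the tested member with the smallest p, and Actc1 varied least like the others. These are the 250 bases before the transcription start from RefSeq on GRCm38.p6, read on the gene's strand, where 9 of the 10 genes matched (Sln had no entry). Capitals mark the GATA element, the core that GATA factors bind, searched on both strands as AGATAA with T also allowed as the first base and G as the last, and the CArG box of serum response factor.
Nppa, chr4:148000472-148000721, plus strand: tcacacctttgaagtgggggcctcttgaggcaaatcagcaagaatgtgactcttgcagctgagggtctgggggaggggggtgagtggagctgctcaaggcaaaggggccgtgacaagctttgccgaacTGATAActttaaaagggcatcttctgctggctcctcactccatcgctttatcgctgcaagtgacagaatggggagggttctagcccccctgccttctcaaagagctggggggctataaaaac
Myl7, chr11:5898783-5899032, minus strand: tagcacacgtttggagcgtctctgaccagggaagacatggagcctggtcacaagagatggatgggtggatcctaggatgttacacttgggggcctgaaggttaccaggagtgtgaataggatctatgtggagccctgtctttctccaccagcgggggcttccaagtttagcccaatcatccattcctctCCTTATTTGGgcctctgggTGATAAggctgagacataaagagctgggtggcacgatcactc
Myh7, chr14:54994627-54994876, minus strand, the start nearest the GENCODE gene start of 2 listed: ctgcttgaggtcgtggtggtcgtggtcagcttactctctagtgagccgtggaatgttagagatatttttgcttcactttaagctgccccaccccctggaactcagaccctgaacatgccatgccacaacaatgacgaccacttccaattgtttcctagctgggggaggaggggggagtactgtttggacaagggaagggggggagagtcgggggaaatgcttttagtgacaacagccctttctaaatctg
Actc1, chr2:114052876-114053125, minus strand: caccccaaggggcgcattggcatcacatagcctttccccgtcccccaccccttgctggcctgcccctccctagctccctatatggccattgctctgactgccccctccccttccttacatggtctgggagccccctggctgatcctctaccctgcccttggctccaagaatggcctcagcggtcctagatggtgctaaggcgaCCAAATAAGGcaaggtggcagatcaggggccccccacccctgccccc
The GATA element of Nppa begins 122 bases before the start and that of Myl7 42 bases before it. A GATA element was present in 5 of the 9 upstream windows (Myh6, Tnnt2, Nppa, Myl7 and Mybpc3) and in 26.5% of 32851 windows over all genes. The CArG box was in 2 of 9 (Myl7 and Actc1) and in 1.47% of all, and CATTCC, the MCAT letters bound by TEAD factors, was in 4 of 9 and in 12.6% of all. The MEF2 site, searched by its consensus, was in 1 of 9 (Mybpc3) and in 1.69% of all. TATAAA was in 1 of 9 (Nppa) and in 12.4% of all. No test was made of these shares, and a match of letters is not a bound site.

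Levels of the 10 genes can be set side by side only per length, as CPM per kilobase of the main GENCODE transcript (RPKM). Myl7, the atrial regulatory light chain of myosin, was the highest, with a median of 107 RPKM over the 6 libraries and a range from 74.1 to 154. Its lowest library lay above the highest library of every other member except Myl4 and Tnnt2. Actc1, cardiac alpha-actin, followed with a median of 55.7 RPKM, and then Myl4, the atrial essential light chain, with 47.5 RPKM and Tnnt2, cardiac troponin T, with 46.7 RPKM. The ranges of these 3 genes overlapped, so their order is not larger than the spread between libraries. Tnni3, cardiac troponin I, had a median of 23.2 RPKM, Myh6, the alpha myosin heavy chain, 20.0 RPKM, and Myh7, the beta heavy chain, 16.8 RPKM. Their ranges overlapped as well. Mybpc3, cardiac myosin-binding protein C, had 3.32 RPKM and Sln, the sarcolipin that inhibits the calcium pump, 1.76 RPKM, again with overlapping ranges. Nppa, which encodes atrial natriuretic peptide, was last with a median of 0.11 RPKM. Myl4 and Tnnt2 have long alternative exons, and over all annotated exons their medians were 9.66 and 7.22 RPKM, below Myh6 at 18.2 RPKM.

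**Figure D1:**
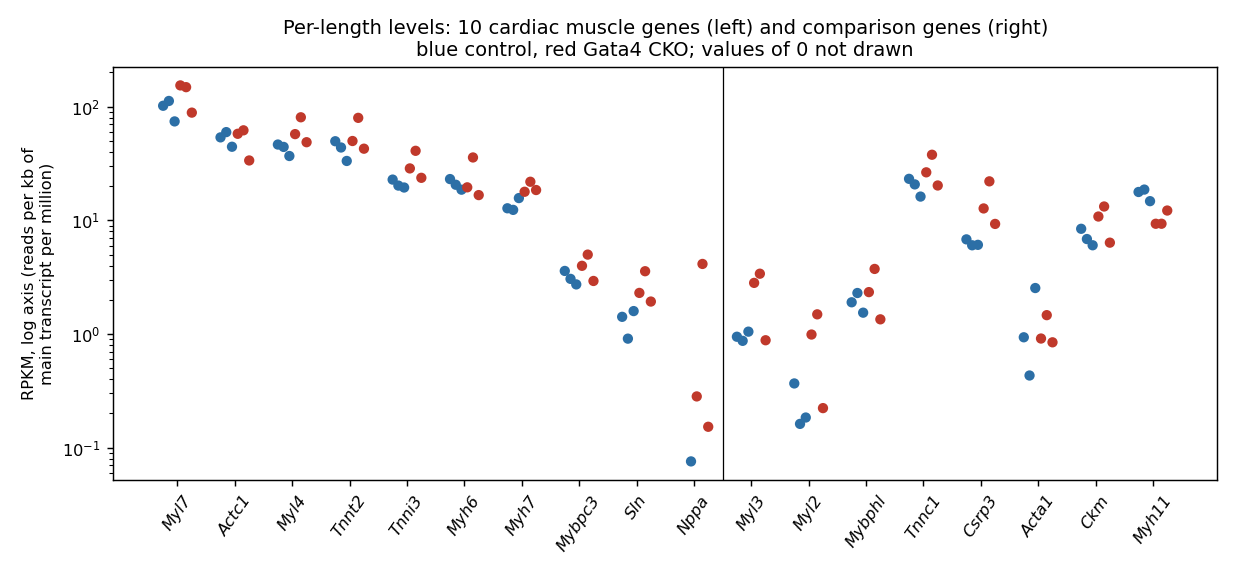
Levels per length (RPKM, log axis) of the 10 cardiac muscle genes on the left and of comparison genes on the right, 1 point per library, with controls in blue, Gata4 CKO in red and values of 0 left out. Myl7 had the highest median (107 RPKM) and Nppa the lowest (0.11 RPKM), and Myl2 had a median of 0.30 RPKM.

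No cardiac muscle gene passed the test between groups. Of the 17075 genes that passed the filter on low counts, 0 (0%) had an adjusted p under 0.05 in edgeR's quasi-likelihood test, and so did 0 of the 9 tested members. Nppa was removed by the filter. Of the 9, 8 had a positive log2 fold change (Gata4 CKO minus control), where 51.5% of all tested genes did, and the median was 0.44, where that of all tested genes was 0.01. At unadjusted p under 0.05 there were 4 members, all higher in Gata4 CKO (Myh7, Sln, Tnni3 and Myl4), beside 3.77% of all tested genes higher and 4.91% lower. The same 4 had groups that did not overlap, with Gata4 CKO higher, beside 7.69% of tested genes, and 0 members had Gata4 CKO lower without overlap, beside 9.08%. With DESeq2 0 members passed, beside 0.691% of tested genes, and without Gata4 CKO 1 again 0, beside 0.656%. Myh7 alone passed with sample quality weights, where 26.1% of tested genes did, and with the number in the column labels as a term, where 42.8% did. Gata4 CKO 2 was the highest of the 6 libraries for 8 of the 9 tested members, beside 22.3% of tested genes. Lung epithelial markers were read beside the cardiac muscle genes. Of 7 such genes 6 had positive log2 fold changes with a median of 0.61, larger than that of the cardiac muscle genes, and 0 passed. Beside Sftpc, the surfactant protein genes Sftpb and Sftpa1 had 0.61 and 0.83, with groups that overlapped. Scgb1a1 and Foxj1 had 0.74 and 0.29, and Ager and Nkx2-1 had 0.03 and -0.07, also with overlap. The part of these lung genes in the cardiac values was not tested. In whole-tissue RNA, more cardiac muscle cells and more RNA per such cell cannot be told apart.

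The myosin heavy chains are the motors of the thick filament. Myh6 (ENSMUSG00000040752, chromosome 14, 54941921 to 54966927, minus strand, GRCm38), the faster form of the atria and of the adult mouse ventricle, was at 141, 126 and 114 CPM in controls 1, 2 and 3. It was at 119, 218 and 102 CPM in Gata4 CKO 1, 2 and 3. Only Gata4 CKO 2 lay above the controls, and the groups overlapped. The log2 fold change was 0.21 ± 0.28 (SE) with an edgeR adjusted p of 0.856, and without Gata4 CKO 2 it was -0.19.

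Myh7 (ENSMUSG00000053093, chromosome 14, 54970684 to 54994626, minus strand) lies next to Myh6 and encodes the slower form, which the fetal ventricle and slow skeletal fibres use. Its values were 79.5, 77.0 and 97.7 CPM in controls 1, 2 and 3 and 111, 136 and 115 CPM in Gata4 CKO 1, 2 and 3. All libraries labelled Gata4 CKO lay above all controls. The means were 84.7 ± 11.3 and 121 ± 13.4 CPM (SD, n = 3 each), and the log2 fold change was 0.51 ± 0.16 (SE) with an edgeR adjusted p of 0.529. Leaving out any 1 library gave log2 fold changes from 0.43 to 0.62. Mhrt, a long noncoding RNA gene, and 3 predicted genes overlap Myh7 on the opposite strand, and the strand setting of the counting is not given in the sources used here.

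The share of Myh6 in the reads of both heavy chains does not depend on library scaling, and the main transcripts are of like length (6113 and 6230 bases). It was 63.9%, 62.0% and 53.8% in controls 1, 2 and 3. The libraries labelled Gata4 CKO 1, 2 and 3 had 51.8%, 61.6% and 47.0%. Each share had a 95% Wilson interval within 1.5 percentage points of it, which covers counting error only. Control 3 lay near Gata4 CKO 1, and Gata4 CKO 2 near control 2, so the groups overlapped. The means were 59.9 ± 5.40% and 53.4 ± 7.47% (SD, n = 3 each), a difference of -6.46 percentage points (exact permutation p = 0.2, two-sided, where 0.1 is the smallest possible). Without Gata4 CKO 2 the difference was -10.5 points, and among the 3 libraries with the label number 4229 (controls 1 and 2 and Gata4 CKO 1) it was -11.2 points. Of the stretches of 50 bases in Myh6 transcripts, 20.2% also occur in Myh7, so part of the reads could not be assigned by sequence alone.

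**Figure D2:**
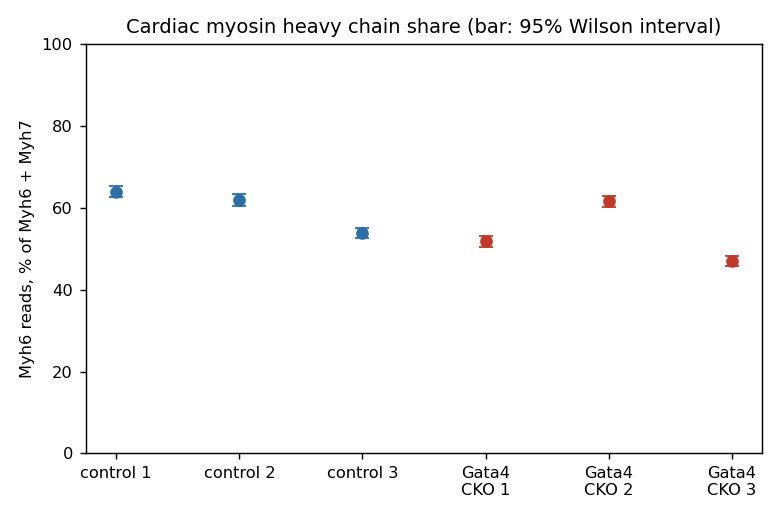
Share of Myh6 in the reads of Myh6 plus Myh7 (vertical axis, percent) in each of the 6 libraries, with bars for the 95% Wilson interval. Gata4 CKO 3 had the lowest share (47.0%) and control 1 the highest (63.9%), and the groups overlapped.

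The light chains wrap the neck of the myosin head. Myl7 (ENSMUSG00000020469, chromosome 11, 5896637 to 5898782, minus strand) was at 60.0, 66.2 and 43.7 CPM in controls 1, 2 and 3 and at 90.7, 87.5 and 52.2 CPM in Gata4 CKO 1, 2 and 3. Gata4 CKO 1 and 2 lay above all controls, and Gata4 CKO 3 lay within their range. The log2 fold change was 0.44 ± 0.25 (SE) with an edgeR adjusted p of 0.668. Of the tested members, Myl7 alone was highest in Gata4 CKO 1, the library with higher values for short genes. At 590 bases it is the shortest of the 10, by main transcript and over all annotated exons. With the length trend of each library removed, a setting chosen after seeing the data, the log2 fold change of Myl7 was 0.29, and the median of the members was 0.50. This trend used the length over all annotated exons, 7752 bases for Tnnt2 and 4637 for Myl4, whose main transcripts have 1200 and 943. Their values in this setting were 0.56 and 0.59.

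Myl4 (ENSMUSG00000061086, chromosome 11, 104550663 to 104595753, plus strand), which embryonic skeletal muscle also uses, was at 43.8, 41.7 and 34.7 CPM in controls and 54.0, 76.0 and 45.9 CPM in Gata4 CKO 1, 2 and 3. The groups did not overlap, though Gata4 CKO 3 lay close above control 1. Its log2 fold change was 0.55 ± 0.21 (SE) with an edgeR adjusted p of 0.546, and 0.33 without Gata4 CKO 2.

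On the thin filament, Tnnt2 (ENSMUSG00000026414, chromosome 1, 135836354 to 135852260, plus strand) ties the troponin complex to tropomyosin. Its values were 59.5, 52.4 and 39.9 CPM in controls and 59.8, 95.6 and 51.2 CPM in Gata4 CKO 1, 2 and 3. Gata4 CKO 2 stood apart, and the other libraries of that group lay within or just above the control range. The log2 fold change was 0.44 ± 0.26 (SE) with an edgeR adjusted p of 0.674 and was 0.14 when Gata4 CKO 2 was left out.

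Tnni3 (ENSMUSG00000035458, chromosome 7, 4518305 to 4524229, minus strand), the inhibitory subunit, replaces the slow skeletal form Tnni1 as the heart matures. It was at 20.8, 18.4 and 17.7 CPM in controls and 26.1, 37.3 and 21.6 CPM in Gata4 CKO 1, 2 and 3. Every library labelled Gata4 CKO lay above the controls, the lowest by a small margin. The log2 fold change was 0.57 ± 0.22 (SE) with an edgeR adjusted p of 0.546, and 0.34 without Gata4 CKO 2. Tnni1 had a log2 fold change of 0.43 (edgeR adjusted p = 0.686). Dnaaf3 overlaps Tnni3 on the same strand, and 1.69% of the stretches of 50 bases in Tnni3 transcripts also occur in it. The part of Dnaaf3 in the Tnni3 values was not tested.

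Actc1 (ENSMUSG00000068614, chromosome 2, 114047282 to 114053548, minus strand), the actin of the cardiac thin filament and of embryonic skeletal muscle, was at 79.0, 87.9 and 65.3 CPM in controls. It was at 85.0, 91.1 and 49.5 CPM in Gata4 CKO 1, 2 and 3. These values spread on both sides of the controls. The log2 fold change was -0.04 ± 0.24 (SE) with an edgeR adjusted p of 0.971, the only negative value among the tested members, and it ranged from -0.19 to 0.19 with 1 library left out.

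Mybpc3 (ENSMUSG00000002100, chromosome 2, 91118144 to 91136516, plus strand), which tunes the myosin heads on the thick filament, was at 14.9, 12.7 and 11.4 CPM in controls and 16.6, 20.8 and 12.2 CPM in Gata4 CKO 1, 2 and 3. Gata4 CKO 3 lay within the range of the controls. Its log2 fold change was 0.34 ± 0.23 (SE) with an edgeR adjusted p of 0.707, and 0.16 without Gata4 CKO 2.

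**Figure D3:**
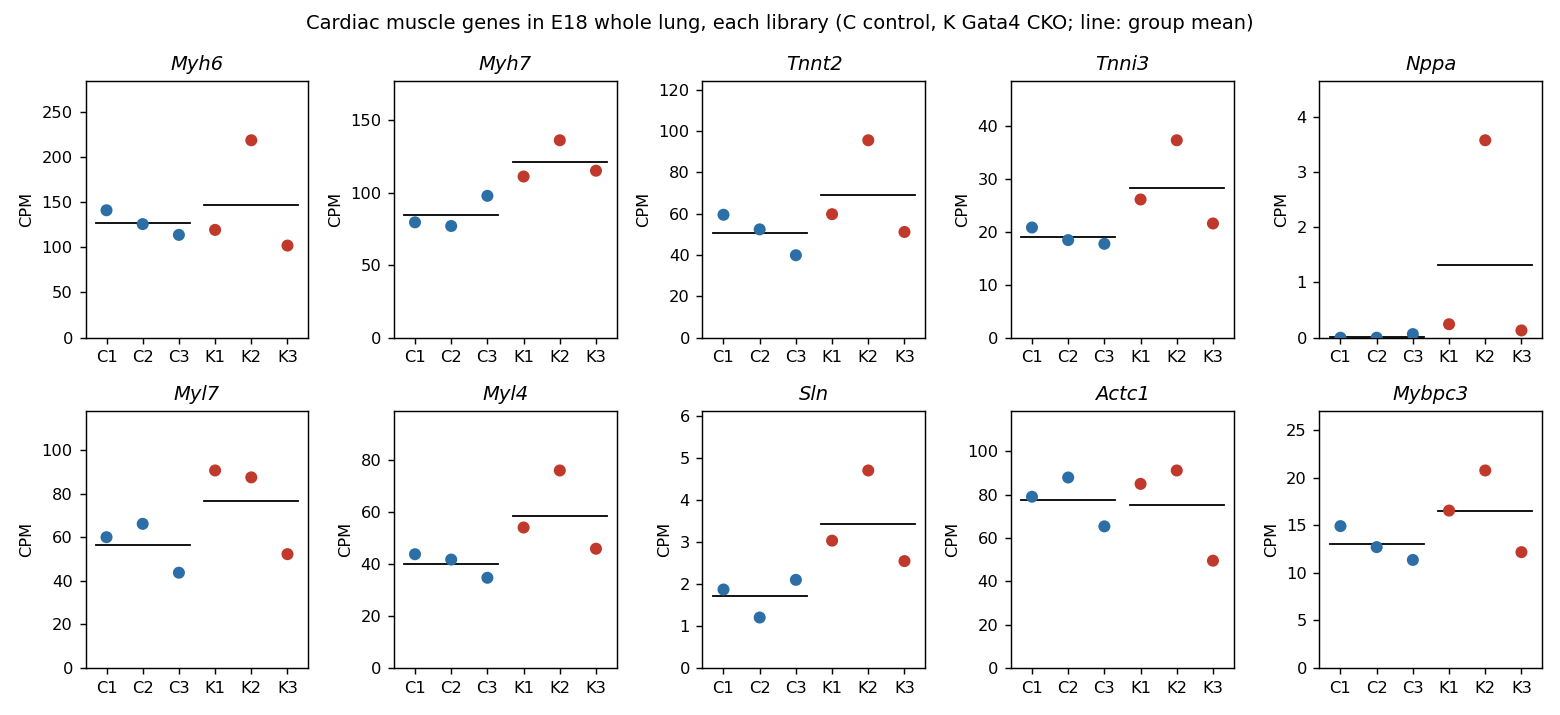
CPM (vertical axis, from 0) of each of the 10 cardiac muscle genes in controls 1 to 3 (C, blue) and Gata4 CKO 1 to 3 (K, red), with a line at each group mean. Gata4 CKO 2 was the highest library for every gene except Myl7.

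Sln and Nppa belong to no filament. Sln (ENSMUSG00000042045, chromosome 9, 53850164 to 53854560, plus strand) encodes a small membrane peptide of atrial muscle that slows the calcium pump. It had 40, 25 and 64 reads in controls and 62, 71 and 77 reads in Gata4 CKO 1, 2 and 3, or 1.87, 1.20 and 2.10 CPM against 3.03, 4.70 and 2.54 CPM. The groups did not overlap. Sln had the largest log2 fold change of the tested members, 0.97 ± 0.34 (SE, edgeR adjusted p = 0.529), with 0.69 without Gata4 CKO 2 and 1.15 without Gata4 CKO 3.

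Nppa (ENSMUSG00000041616, chromosome 4, 148000722 to 148002079, plus strand) is a common marker of atrial muscle, yet it had 0, 0 and 2 reads in controls 1, 2 and 3. Gata4 CKO 1 and 3 had 5 and 4 reads, and Gata4 CKO 2 had 54. The reads of Gata4 CKO 2 amount to 3.57 CPM, with a 95% Poisson interval from 2.69 to 4.66 CPM that covers counting error only. Its upper bound was 0.24 CPM in control 3, 0.57 CPM in Gata4 CKO 1 and 0.34 CPM in Gata4 CKO 3. For the 0 reads of controls 1 and 2 the floor of 3 reads was 0.14 CPM. Nppa was thus at or near 0 in 5 libraries in which the atrial light chain Myl7 stood at 43.7 CPM or more. With no filter edgeR gave it an adjusted p of 0.722. Nppb, the neighbouring natriuretic peptide gene, had 2 reads in Gata4 CKO 2, 1 read in Gata4 CKO 1 and 0 reads elsewhere.

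**Figure D4:**
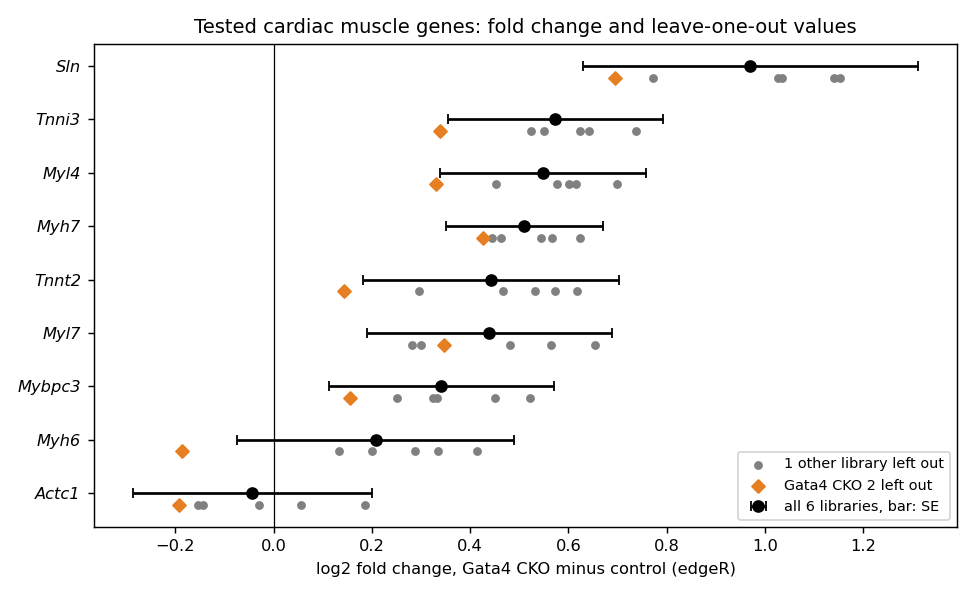
Log2 fold change of Gata4 CKO minus control (horizontal axis) for the 9 tested cardiac muscle genes over all 6 libraries, with bars for the SE, and with 1 library left out in turn. Leaving out Gata4 CKO 2 (orange) gave the lowest value for all of them but Myl7, from -0.19 to 0.69.

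The 10 genes tended to vary together from library to library. Their mean log2 CPM was 4.27, 4.16 and 4.14 in controls 1, 2 and 3. The libraries labelled Gata4 CKO 1, 2 and 3 had 4.71, 5.44 and 4.33. Over the 9 tested members alone, without Nppa, Gata4 CKO 3 lay within the range of the controls. Of the 45 pairs, 28 had a Pearson r over 0.7 across the 6 libraries, and the median was 0.78. Tnni3 and Myl4 were the closest pair (r = 0.98). Tnni3 also followed the mean of the other 9 most closely (r = 0.99), and Actc1 least (r = 0.39). Myh7 and Actc1 were the 1 pair below 0 (r = -0.14). These values describe 6 libraries that share the high value of Gata4 CKO 2.

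The genes with the pattern most like the mean of the 10 were found by Pearson r over the 6 libraries among 15319 genes with a mean of at least 1 CPM. In order they were Atp6v0a4, a proton pump subunit, Lif, a cytokine, Cox6a2, Fabp3, Tfap4, Cntd1, A130014A01Rik, Csrp3, Tuft1 and Ovgp1, with r from 0.996 down to 0.971. Cox6a2 is the heart and muscle form of a cytochrome oxidase subunit, Fabp3 the heart fatty acid-binding protein and Csrp3 the muscle LIM protein of the Z-disc. Fabp3 was at 8.63, 6.86 and 7.70 CPM in controls and 12.6, 19.9 and 9.35 CPM in Gata4 CKO 1, 2 and 3. Its likeness to the 10 genes chose it, so its difference between groups is given no test. An r of at least 0.9 was reached by 61 genes (0.398%).

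Other genes of the cardiac sarcomere and Z-disc were read from a list of 28, of which 26 were tested and 0 passed. Of the 26, 20 had positive log2 fold changes, beside 51.5% of tested genes, and the median was 0.31. For 20 the highest library was Gata4 CKO 2, beside 22.3% of tested genes. Without that library the median was -0.03. Csrp3 had the smallest p, at 6.11, 5.42 and 5.47 CPM in controls and 11.4, 19.8 and 8.35 CPM in Gata4 CKO 1, 2 and 3. Those groups did not overlap (log2 fold change 1.21 ± 0.32, SE). Csrp3 was on this list by its role, but it was also among the genes most like the mean of the cardiac muscle genes. Its group difference is therefore not separate from theirs and is not read as a test of its own. Myl3, the ventricular essential light chain, had 1.27 with groups that overlapped (17 to 54 reads, edgeR adjusted p = 0.546). Myoz2, a Z-disc protein, had 1.01 with groups that did not overlap (29 to 94 reads, edgeR adjusted p = 0.568). Of the 26, 2 were higher in Gata4 CKO without overlap (Csrp3 and Myoz2), beside 7.69% of tested genes, and 0 lower, beside 9.08%. Ttn, the titin spring, was at 81.9 CPM in Gata4 CKO 2, 18.4 CPM in Gata4 CKO 1 and from 26.1 to 36.4 CPM elsewhere. The most abundant members, Tpm1, Nebl and Nexn, which other cells of the lung also express, had 0.00, -0.12 and -0.16.

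Ventricular and atrial versions were read at unequal levels. Myl2, the ventricular regulatory light chain and counterpart of Myl7, had 7, 3 and 5 reads in controls and 18, 20 and 6 in Gata4 CKO 1, 2 and 3. It failed the filter, and its median of 0.30 RPKM compares with 107 RPKM for Myl7. Irx4, a ventricular transcription factor, Hand1, of the left ventricle, and Bmp10, an atrial growth factor, had 0 reads in all 6 libraries. The floor of 3 reads for a count of 0 was 0.10 to 0.20 CPM in these libraries. Nkx2-5, a transcription factor that defines heart muscle, ranged from 0.23 to 0.86 CPM (log2 fold change 0.47, edgeR adjusted p = 0.826). Over the atrial list, which holds Myl7, Myl4, Sln and Nppa, 7 of 9 tested genes were positive with a median of 0.35. Over the ventricular list, which holds Myh7, 3 of 5 were, with a median of 0.51, and 0 genes of either list passed. The atrial median was -0.05 without Gata4 CKO 2. The ventricular median ranged from 0.43 to 1.12 with 1 library left out. It covered 5 genes without Gata4 CKO 1 or 2 (0.57 and 0.43) and 6 genes in the other runs (0.83 to 1.12). Pln, the ventricular inhibitor of the calcium pump, had 1.72, and Kcna5, an atrial potassium channel, -0.72, both with groups that did not overlap and an adjusted p of 0.529. Mpped2 of the ventricular list was lower without overlap as well, at 12.2, 14.0 and 12.3 CPM in controls and 9.67, 7.21 and 9.25 CPM in Gata4 CKO 1, 2 and 3 (log2 fold change -0.55 ± 0.18, SE, edgeR adjusted p = 0.529). Hey2, a ventricular repressor, had -0.20. Without overlap, 2 of the 9 atrial and 2 of the 5 ventricular genes were higher in Gata4 CKO, beside 7.69% of tested genes. In each list 1 gene was lower without overlap, beside 9.08%.

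Genes of cardiac calcium handling and channels split by direction, with 12 of 19 tested genes positive, a median of 0.12 and 0 passing. Without Gata4 CKO 2 the median was -0.072. Groups did not overlap for 1 gene higher in Gata4 CKO (Pln), beside 7.69% of tested genes, and for 2 lower, beside 9.08%. The 2 were Kcna5 and Cacna1c, the pore of the L-type calcium channel, which had -0.46. Atp2a2, the calcium pump, Gja5, a connexin, and Slc8a1, the sodium-calcium exchanger, were the most abundant, and their log2 fold changes were -0.16, -0.02 and -0.09. Which cells of the lung these reads came from was not tested, for this list or for the atrial list. Of the cardiac transcription factors 9 of 17 were positive, with a median of 0.16 that became -0.30 without Gata4 CKO 2, and 0 passed. Of the 17, 6 had groups that did not overlap with Gata4 CKO lower, beside 9.08% of tested genes, and 0 with Gata4 CKO higher, beside 7.69%. The 3 with the smallest p, Myocd, Mef2c and Tbx3, are also genes of lung mesenchyme or vessels and had -1.09, -0.55 and -0.44. Nr2f2 and Tbx5, abundant like Tbx3, had -0.31 and -0.22, also lower without overlap. Of the genes of the sinus venosus and pulmonary vein, 4 of 6 were positive, with a median of 0.19 and 0 passing. That median was -0.21 without Gata4 CKO 2. Isl1 and Tbx18 had 0.26 and 0.17, with groups that overlapped.

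Skeletal muscle, which the diaphragm beside the lung consists of, uses Myh7, Tnnt2, Myl4, Sln and Actc1 as well. Its 19 markers summed to 40.3, 30.7 and 36.9 CPM in controls and 43.8, 53.8 and 32.8 CPM in Gata4 CKO 1, 2 and 3, of which Ckm, a creatine kinase of heart and skeletal muscle, made up 23.1, 18.8, 16.5, 29.6, 36.3 and 17.4 CPM. The muscle cell regulators Myod1 and Chrna1, a receptor subunit of the muscle end plate, had 0 reads in every library. Myog had at most 7 reads and Pax7 at most 1, and Acta1, skeletal alpha-actin, ranged from 0.62 to 3.67 CPM with its highest value in control 3. Of the 10 tested markers 6 were positive, beside 51.5% of tested genes, with a median of 0.13. For 2 the highest library was Gata4 CKO 2, beside 22.3% of tested genes. None (0 of 10) passed in edgeR, and 0 had an unadjusted p under 0.05. Other markers were above 0 in every library, such as Mylpf, a fast light chain, at 2.84 to 4.59 CPM. Casq1 and Ryr1, calcium store proteins of skeletal muscle, had the smallest p beside Ckm, with log2 fold changes of -0.78 and 0.81. The mean log2 score of the list was highest in Gata4 CKO 2 (0.30), next to control 3 (0.27). Without Ckm, a sum added after seeing the data, the 18 remaining markers came to 17.2, 11.9 and 20.3 CPM in controls 1, 2 and 3 and to 14.2, 17.5 and 15.4 CPM in Gata4 CKO 1, 2 and 3, and the groups overlapped. The part of skeletal muscle in the cardiac values was not tested.

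Of the 9 smooth muscle genes tested, 7 had negative log2 fold changes, with a median of -0.40 and 0 passing. Myh11, the smooth muscle myosin heavy chain, was at 114, 120 and 95.05 CPM in controls and 60.1, 60.2 and 78.6 CPM in Gata4 CKO 1, 2 and 3, without overlap (log2 fold change -0.73 ± 0.17, SE, edgeR adjusted p = 0.529). Smtn and Synpo2 had -0.43 and -0.40. Of the 9, 4 were lower in Gata4 CKO without overlap, beside 9.08% of tested genes, and 0 were higher, beside 7.69%. Mesothelial genes, which also cover the heart and the diaphragm, were positive in 3 of 6, with a median of 0.02 and a score highest in Gata4 CKO 2 (0.33). Msln, Upk3b and Upk1b had -0.24, 0.19 and 0.06. Their part in the cardiac values was not tested.

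**Figure D5:**
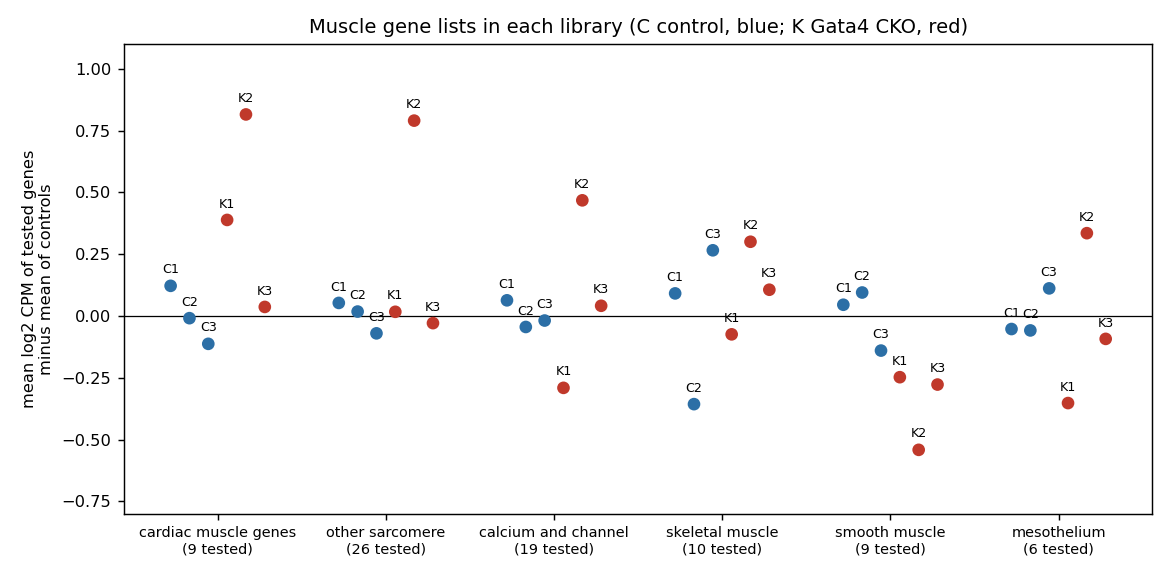
Mean log2 CPM of the tested genes of 6 lists in each library, minus the mean of the controls (vertical axis), with controls in blue (C) and Gata4 CKO in red (K). Gata4 CKO 2 stood highest for the cardiac muscle genes (0.82) and for the other sarcomere genes (0.79), while Gata4 CKO 3 (0.04 and -0.03) lay within the range of the controls.

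The number in the column labels, which the labels give no meaning, is 4229 for the first pair of controls and for Gata4 CKO 1. Control 3 has 4503, and Gata4 CKO 2 and 3 have 4723. A group difference within a number thus exists for 4229 alone and describes 1 Gata4 CKO library. With the number as a term, the log2 fold changes were -0.16 for Myh6, 0.51 for Myh7, 0.10 for Tnnt2, 0.41 for Tnni3 and 0.52 for Myl7. They were 0.34 for Myl4, 0.98 for Sln, 0.03 for Actc1 and 0.26 for Mybpc3. The high library, Gata4 CKO 2, and Gata4 CKO 3, which lay near the controls, share the number 4723.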

How the data were processed

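Read counts per Ensembl gene were deposited by the authors as whole numbers without scaling, for 6 whole lungs of embryos. As tools the submitters' processing notes list DESeq2 (1.36.0), STAR (2.7.10a) and featureCounts (2.0.1), and as builds mm10 and GRCm38, without saying what each was used for. The sources used here give no annotation release, strand setting or read filter. In the table of 55335 genes 23377 lacked a symbol. A gene ID lookup in a table of gene names supplied 23239, and 180 genes are named by their ID. All columns with sample values were used (0 left out).

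Counts were filtered with filterByExpr (smallest count 10, total 15), scaled by TMM and tested over all genes with edgeR 4.0.16 (quasi-likelihood, robust, R 4.3.3), Gata4 CKO minus control, with Benjamini-Hochberg adjustment and a threshold of 0.05. The SE is the fold change divided by the square root of F. CPM used the scaled library sizes, and log2 CPM a prior count of 2. Gene models came from GENCODE mouse release 21 on GRCm38, and RPKM used the longest transcript tagged as principal. The script was tested on simulated counts. With 3 libraries per group, described as biological replicates, p-values set the group difference against the spread between embryos, and an exact permutation test cannot go below 0.1. That spread includes any difference between label numbers, which the groups share only in part. Alternatives used other scalings, no filter, DESeq2 1.42.0, limma 3.58.1 (voom, with and without quality weights), the replicate number, the label number, left-out libraries and a threshold of 0.10. The spline that removed the length trend had 5 degrees of freedom and used the length over all annotated exons.

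The 10 genes and the other lists were chosen with earlier results of these data known. The rule for named genes took the 10, Gata4, 8 defining markers, the 3 smallest p per list, the 3 most abundant genes of cardiac lists and the 10 most alike. Some genes it takes are not reported here. Fabp3, Cox6a2, Ttn, Tnni1, Nppb, Irx4, Hand1, Bmp10 and other genes outside it were named after their values were seen.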

Additional observations from a re-analysis of the deposited data

How the results depend on the processing

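Under 17 alternatives the count of cardiac muscle genes past the threshold was 0 in 15 and 1 in 2 (Myh7, with quality weights and with the label number as a term, adjusted p = 0.00287 and 0.00317). Over all genes the count was 110 with DESeq2, 4460 with quality weights and 7308 with the label number as a term, and with 1 library left out it ranged from 0 to 115, the 115 without Gata4 CKO 1. The members' median log2 fold change was 0.083 with quality weights and from 0.30 to 0.62 with 1 library left out. The sign of single genes turned with quality weights for Myh6 (-0.13), Myl7 (-0.038) and Mybpc3 (-0.047), with the label number for Myh6 (-0.16) and Actc1 (0.026), with upper quartile scaling for Actc1 (0.0023), and with 1 library left out for Myh6 (-0.19 without Gata4 CKO 2, range to 0.41) and Actc1 (-0.19 to 0.19). The cause was not tested. With 1 library left out the list medians ranged from -0.034 to 0.50 for other sarcomere genes, -0.30 to 0.30 for transcription factors, -0.048 to 0.65 for atrial, 0.43 to 1.12 for ventricular, -0.20 to 0.43 for skeletal and -1.69 to 1.18 for liver genes. With the label number they were -0.46 for calcium and channel, -0.49 for transcription factor, -0.79 for sinus venosus, -0.29 for mesothelial, 0.45 for erythroid, -1.68 for thymus and -2.58 for oesophagus genes. Transcription factors had -0.19 with limma-voom and -0.17 with quality weights, atrial genes -0.025 with quality weights, and ventricular genes 0.902 with no filter and 0.899 with DESeq2. The ventricular genes tested were 5 in the main fit, 6 with no filter and with DESeq2, and 5 or 6 with 1 library left out. Skeletal genes tested were 10 or 12 with 1 library left out. With the replicate number as a block, the members' median was 0.42 and 0 members passed. Deviations of same-numbered libraries correlated at 0.11, -0.30 and 0.12. These values show no clear pairing by number, and 3 libraries per group cannot settle whether there was one. The Myh6 share kept its direction in 9 alternatives, from -11.2 to -3.21 points, with -6.46 under the replicate block.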

Other observations

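Tissues that adjoin the lung and heart were read from short lists. The liver genes Alb, Afp and Apoa1 were highest in control 1, where Alb stood at 16.8 CPM, against 0.93 to 3.04 CPM in the other libraries. Thymus genes summed to at most 1.26 CPM, in Gata4 CKO 2, with Rag1 the 1 tested member at 0.86 CPM there. Oesophagus genes summed to between 0.88 and 2.49 CPM. Red cell genes, led by the globin Hba-a1, summed to between 1962 and 3330 CPM, with 2640 CPM in Gata4 CKO 2, and 2 of 4 had positive log2 fold changes. Alas2 and Slc4a1 had -0.06 and 0.10, and the oesophagus genes Trp63 and Krt4 had -0.36 and -0.11. None (0) of these genes passed in edgeR, where 0 had an unadjusted p under 0.05.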
